A study of Mus musculus with 6 samples.

Results

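The 10 genes described here encode small leucine-rich proteoglycans or close relatives of them, secreted proteins of the extracellular matrix: Dcn (decorin), Bgn (biglycan) and Aspn (asporin) of class I, Lum (lumican), Prelp, Fmod (fibromodulin), Omd (osteomodulin) and Kera (keratocan) of class II, Ogn (osteoglycin) of class III, and Podn (podocan) of class V. In the order given their gene IDs in the table are 13179, 12111, 66695, 17022, 116847, 14264, 27047, 16545, 18295 and 242608. They were taken by symbol from a table of 24529 genes, and each of the 10 symbols was found. RNA sequencing had been done on 3 mesenchymal populations that were sorted by flow cytometry from dorsal skin of CD1 mice, all female and at postnatal day 16, the early catagen stage, in which the lower hair follicle regresses. Dermal fibroblasts (DF) come from the dermis, dermal papilla (DP) cells from the signalling cluster at the follicle base, and dermal sheath (DS) cells from the contractile layer around the follicle. Each population had 2 biological replicates, and the labels name no treatment and no engineered allele for any of the 6 libraries. What markers the sort used, and whether a replicate pooled several animals, is not given in the sources used here.

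Small leucine-rich proteoglycans have a core of leucine-rich repeats that bends into an arc and binds collagen. Most carry glycosaminoglycan chains, dermatan or chondroitin sulfate in Dcn and Bgn and keratan sulfate in several members of class II. They are known for setting the diameter and spacing of collagen fibrils, and Dcn and Bgn also bind TGF-beta. In skin, Dcn is a major product of dermal fibroblasts.

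Levels are RPKM, reads scaled by transcript length and library depth, so they can be compared between genes. Differences are of log2(RPKM + 1), tested by limma over the 14664 genes that reached 1 RPKM in at least 2 libraries. A difference was called at a Benjamini-Hochberg adjusted p under 0.05 together with an absolute log2 difference of at least 1. Errors on mean RPKM are SD over the 2 libraries of a population, and SE on the log2 scale come from the moderated fit. Each of the 10 genes passed the filter, Kera through its DF libraries alone. Depth was estimated from the smallest steps in RPKM times transcript length, without an uncertainty, and relative to DF replicate 2 it was 0.724 in DF replicate 1, 0.643 and 0.497 in DP and 0.396 and 0.466 in DS. On the deposited scale the whole table was shifted, with a median log2 difference of 0.53 between DS and DF, of 0.71 between DP and DF, and of -0.17 between DS and DP. After median-ratio scaling, calls over all genes went from 3027 higher and 872 lower to 1173 and 1491 for DS minus DF, and from 4613 and 1007 to 1360 and 1950 for DP minus DF. For DS minus DP they went from 1381 and 1876 to 1688 and 1428. Among population markers, 9 of 10 sheath genes were higher in DS than in DF and 10 of 10 papilla genes were higher in DP than in DF, although the papilla gene Corin was higher still in DS (1.30 for DS minus DP, adjusted p = 0.00335). The fibroblast list was mixed, with 6 of 10 lower and 2 higher in DS (Pdgfra by 2.43 and Vim by 2.02), and 6 lower and 1 higher in DP (Vim by 2.23). With 2 libraries in each population, the smallest two-sided p of an exact permutation test is 0.333, and the limma values given here measure only the spread between these libraries.

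The proteoglycan transcripts were abundant in fibroblasts and sheath cells and scarce in the papilla. Together the 10 genes summed to 6926 and 6803 RPKM in the DF libraries, 6131 and 6525 in DS, and 404 and 452 in DP. Leaving out Mir6236, a small RNA gene that held from 46.6% to 77.1% of each library's summed RPKM, they made up 1.38% and 1.26% of the remaining sum in DF, 0.969% and 1.01% in DS and 0.0644% and 0.0719% in DP. Bgn alone held 89.1% and 92.7% of the family's sum in the DP libraries. In bulk RNA, fewer cells that express a gene and less of its RNA per cell cannot be told apart.

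**Figure D1:**
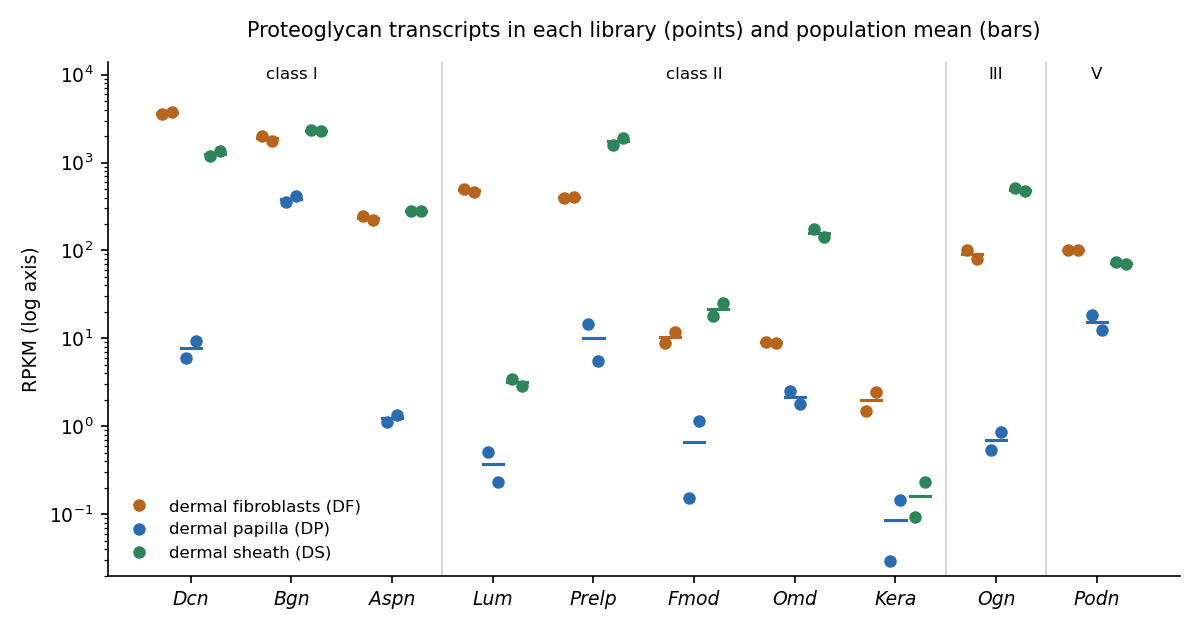
RPKM of each gene on a log axis, with a point per library, a short bar at the mean of the 2 libraries, and colours for the 3 populations. The DP points lie below those of DF and DS for each gene except Kera, where DP and DS share a range and DF is above both.

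Dcn, the prototype of the family, was at 3579 and 3730 RPKM in the DF libraries, 1172 and 1354 in DS and 6.04 and 9.40 in DP. The 3 populations did not overlap: DF was highest, where Dcn ranked as gene 10 of the whole table by mean RPKM, and DP was lowest. The means were 3654 ± 106 RPKM in DF, 1263 ± 129 in DS and 7.72 ± 2.38 in DP (SD, n = 2). The log2 difference was -1.54 for DS minus DF (SE 0.21, adjusted p = 0.00351), and DS held 34.6% of the DF mean. For DP minus DF it was -8.74 (SE 0.21, adjusted p = 4.45e-05), with DP at 0.211% of the DF mean.

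Bgn, the closest relative of Dcn, was at 1983 and 1779 RPKM in DF, 2324 and 2263 in DS and 360 and 419 in DP. It was the family member with the highest level in both DS and DP, and ranked 16 of all genes in DF, 18 in DS and 200 in DP. Its mean in DP was 389.6 ± 41.6 RPKM (SD, n = 2). DS libraries lay above DF libraries, but the difference of 0.29 missed the threshold (95% interval -0.05 to 0.62, adjusted p = 0.131) and turned to -0.35 under median-ratio scaling (0.257 as adjusted p, in a range of 0.0309 to 0.959 over the alternatives). DP was lower than DF by a log2 difference of -2.27 (SE 0.13, adjusted p = 0.000265).

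Aspn, whose product has an aspartate-rich start and lacks the usual chain attachment site of class I, was at 245 and 222 RPKM in DF, 279 and 277 in DS and 1.12 and 1.35 in DP. It had nearly the same level in fibroblasts and sheath, with a difference of 0.25 (95% interval -0.08 to 0.59, adjusted p = 0.172) that also changed sign under median-ratio scaling, to -0.38 (0.19 as adjusted p, in a range of 0.0211 to 0.827). DP was lower by -6.71 (SE 0.13, adjusted p = 3.4e-05). Within class I, then, the DP mean ran from 0.211% of DF for Dcn and 0.528% for Aspn to 20.7% for Bgn.

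Lum, which carries keratan sulfate in the cornea and binds fibrillar collagen, was at 500 and 464 RPKM in DF, 3.47 and 2.87 in DS and 0.509 and 0.235 in DP. It was a DF transcript with little signal in either follicle population, with means of 482 ± 25.3 RPKM in DF and 3.17 ± 0.425 in DS (SD, n = 2). The log2 difference was -6.86 for DS minus DF (SE 0.19, adjusted p = 5.12e-05) and -8.47 for DP minus DF (SE 0.19, adjusted p = 3.94e-05). DS still exceeded DP by 1.61 (SE 0.19, adjusted p = 0.0023). The DS values correspond to about 77.4 and 75.2 reads and the DP values to about 18.4 and 6.56 reads at the estimated depths.

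Prelp, a heparin-binding relative of Fmod and Lum, went the other way between fibroblasts and sheath. It was at 398 and 403 RPKM in DF, 1576 and 1918 in DS and 14.6 and 5.50 in DP, and was gene 32 of the table in DS, with a mean of 1747 ± 242 RPKM there (SD, n = 2). DS exceeded DF by 2.11 (SE 0.40, adjusted p = 0.0102). This SE was the largest of the 10 genes. Without DF replicate 1 the difference of 2.11 was no longer called (adjusted p = 0.0556, within a range from 0.00143).

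Omd, a keratan sulfate proteoglycan best known from bone, had the largest rise of the family from DF to DS. It was at 9.18 and 8.86 RPKM in DF, 177 and 143 in DS and 2.5 and 1.80 in DP. DS was 17.7 times the DF mean (log2 difference 4.0, SE 0.20, adjusted p = 0.000159), and DP was lower than DF by -1.68 (SE 0.20, adjusted p = 0.00182). Ogn, also named mimecan, was at 100.2 and 80.2 RPKM in DF, 508 and 471 in DS and 0.536 and 0.862 in DP. DS was 5.43 times the DF mean (log2 difference 2.44, SE 0.18, adjusted p = 0.000517), and DP minus DF was -5.74 (SE 0.18, adjusted p = 7.19e-05). The distance of Ogn between the follicle populations was the widest in the family, with a log2 difference of 8.18 for DS minus DP (SE 0.18, adjusted p = 3.13e-05). Its DP values correspond to about 20.3 and 25.3 reads at the estimated depths.

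Fmod, a regulator of fibril diameter in tendon, was low throughout, at 8.91 and 11.8 RPKM in DF, 17.8 and 25.0 in DS and 0.152 and 1.16 in DP. The DS libraries lay above the DF libraries, yet the difference of 0.97 was not called (95% interval 0.06 to 1.89, adjusted p = 0.0779). It was called when libraries were brought to the same summed RPKM (1.42, adjusted p = 0.0294, within a range up to 0.424). DP was lower than DF by -2.83 (SE 0.37, adjusted p = 0.00246), on about 7.02 and 41.4 reads in DP.

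Podn, the class V member, which binds collagen and is known as a growth inhibitor of smooth muscle cells, was at 101 and 102 RPKM in DF, 73.9 and 70.0 in DS and 18.5 and 12.4 in DP. Its populations did not overlap, and DP kept 15.2% of the DF mean. The difference of -0.49 for DS minus DF was not called (95% interval -0.99 to 0.01, adjusted p = 0.0993) but was called under median-ratio scaling (-1.12, with 0.0141 as adjusted p, in a range up to 0.977). DP minus DF was -2.66 (SE 0.20, adjusted p = 0.000479).

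Kera, which is best known from the corneal stroma, was near the limit of detection, at 1.47 and 2.46 RPKM in DF, 0.0921 and 0.231 in DS and 0.0291 and 0.145 in DP. These are about 56.1 and 129 reads in DF, 1.91 and 5.64 in DS and 0.981 and 3.78 in DP, so a ratio between populations rests on few reads for Kera. DF was above both follicle populations, with -1.34 for DS minus DF (adjusted p = 0.008) and -1.43 for DP minus DF (adjusted p = 0.00488). Since only the DF libraries carried Kera past the filter, some difference of this kind was built in.

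The sheath and the fibroblasts differed in both directions. In DS against DF, 3 of the 10 genes were called higher (Prelp, Omd and Ogn) and 3 lower (Dcn, Lum and Kera), beside 26.6% of all tested genes called, 20.6% higher and 5.95% lower. Leaving out Kera, whose lower call was built into the filter, 3 of 9 were higher and 2 lower. The family's median difference was 0.27, against 0.53 over all genes tested, and it became -0.37 against 0 with median-ratio scaling. The 3 higher and 3 lower genes had the same direction in each of the scalings tried.

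Between papilla and fibroblasts the genes went 1 way. In DP against DF, 10 of 10 genes were called lower by limma and 0 higher, with 0 also higher at an unadjusted p under 0.05, beside 38.3% of all tested genes called, 6.87% lower. Without Kera it was 9 of 9. The median difference was -4.08 for the family and 0.71 over all genes. Omd (-1.68) and Bgn (-2.27) fell less than the other members apart from Kera, whose value of -1.43 became -3.50 with a pseudocount of 0.1 in place of 1.

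Between the follicle populations, 9 of 10 genes were called higher in DS than in DP and 0 lower, again with 0 lower at an unadjusted p under 0.05, beside 22.2% of all tested genes called, 9.42% higher. Kera was the exception, with a difference of 0.09 (95% interval -0.49 to 0.68, adjusted p = 0.784). The family's median was 4.74, against -0.17 over all genes. The 3 comparisons share libraries with each other, so their counts are not independent.

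**Figure D2:**
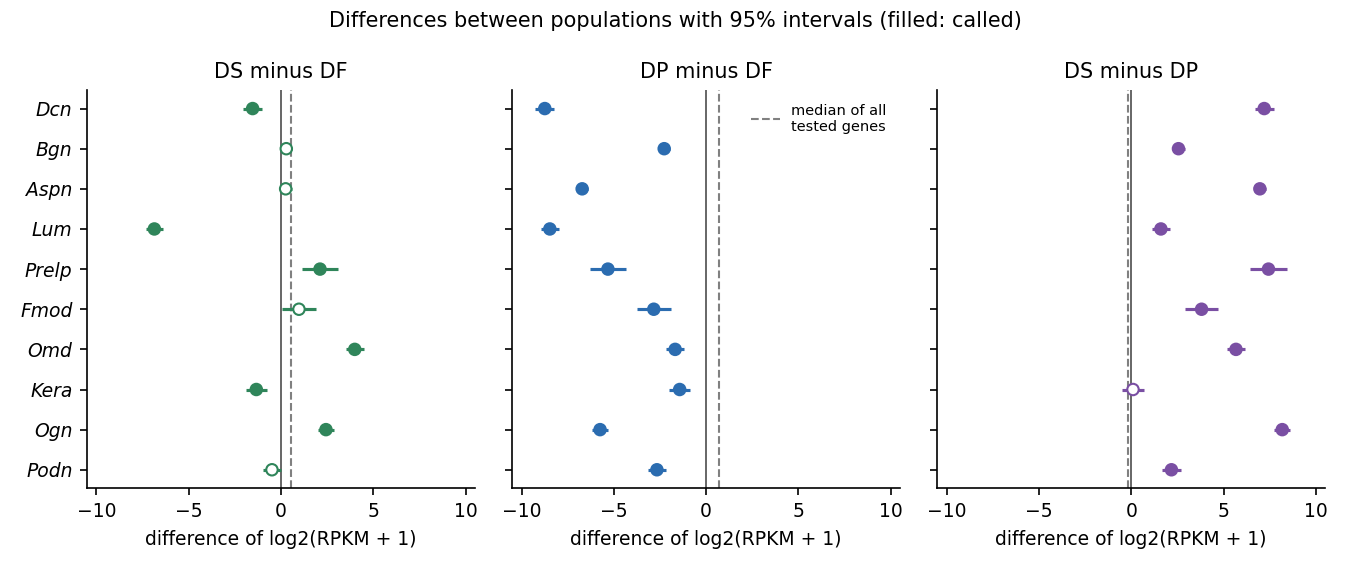
Difference of log2(RPKM + 1) for each gene in the 3 comparisons, with 95% intervals from the limma fit as lines, filled points for called genes, and a dashed line at the median of all tested genes. In DP minus DF the 10 points are filled and left of 0, whereas in DS minus DF they lie on both sides, from -6.86 for Lum to 4.0 for Omd.

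The order of the genes within a population changed as well. In DF the order of mean RPKM was Dcn, Bgn, Lum, Prelp, Aspn, Podn, Ogn, Fmod, Omd and Kera, and among neighbours in that order only Fmod and Omd overlapped between libraries. In DS it was Bgn, Prelp, Dcn, Ogn, Aspn, Omd, Podn, Fmod, Lum and Kera, with no overlap between neighbours. In DP, Bgn stood first, followed by Podn, Prelp and Dcn, whose neighbouring ranges overlapped. Then came Omd, Aspn, Ogn, Fmod, Lum and Kera. Among these, Fmod at 0.152 and 1.16 RPKM overlapped Aspn, Ogn and Lum, whereas Ogn and Lum lay apart.

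Shares and ratios inside a library do not depend on scaling between libraries. Dcn made up 51.7% and 54.8% of the family's summed RPKM in DF and 19.1% and 20.8% in DS. The Prelp share went from 5.75% and 5.92% in DF to 25.7% and 29.4% in DS, and Ogn from 1.45% and 1.18% to 8.29% and 7.22%. The Lum share was 7.21% and 6.82% in DF, and 0.0565% and 0.0439% in DS. For each of these 4 genes the DF and DS libraries lay apart, with Dcn and Lum holding less of the sheath's sum and Prelp and Ogn more.

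Ratios between pairs of genes showed the same shift. Lum was 14.0% and 12.4% of Dcn in the DF libraries but 0.296% and 0.212% in DS, and 8.43% and 2.5% in DP. Bgn was 55.4% and 47.7% of Dcn in DF, 198% and 167% in DS, and 5964% and 4458% in DP. Fibroblasts thus had more Dcn than Bgn transcript per length, and both follicle populations had more Bgn than Dcn.

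**Figure D3:**
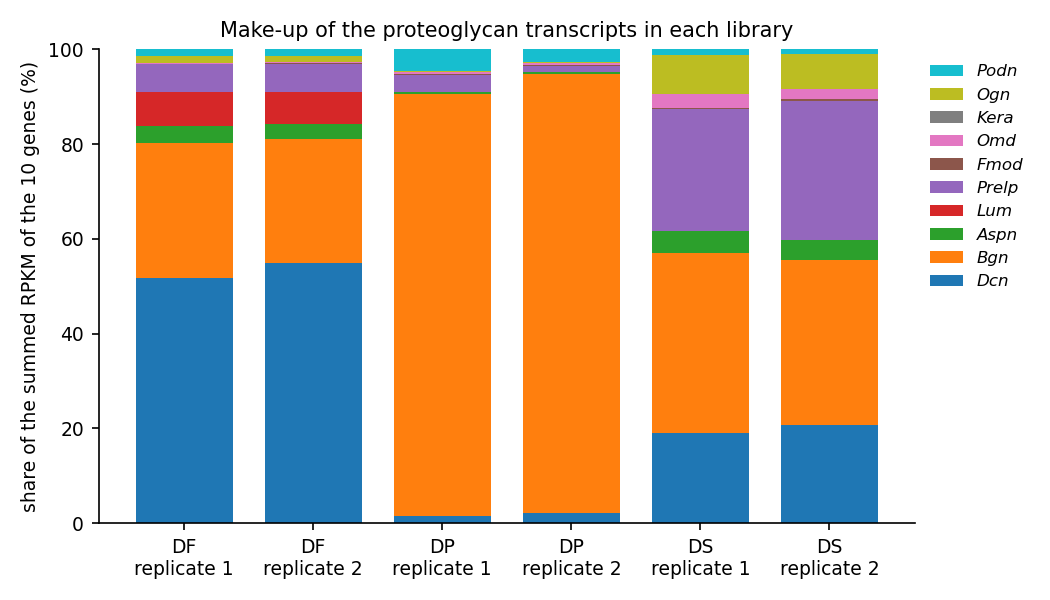
Share of the summed RPKM of the 10 genes held by each gene, as a stacked bar from 0 to 100% per library. Dcn fills over 50% of both DF bars, Bgn nearly the whole of both DP bars, and Prelp and Ogn widen in both DS bars.

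Most members sit in clusters on the chromosomes, so neighbours could be compared. In the RefSeq annotation of the mouse assembly GRCm38.p6, Dcn, Lum and Kera follow each other on chromosome 10 among coding genes, Ecm2, Aspn, Omd and Ogn on chromosome 13, and Prelp and Fmod on chromosome 1. Bgn lies on the X chromosome and Podn on chromosome 4. Ecm2, a leucine-rich repeat matrix gene that is not among the 10, was at 211 and 192 RPKM in DF, 65.4 and 52.4 in DS and 8.01 and 7.53 in DP.

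On chromosome 10 both Lum and Dcn were called lower in DS than in DF, but DS kept 34.6% of the DF mean for Dcn and 0.657% for Lum. On chromosome 13 the adjacent genes did not move together in DS, with log2 differences for DS minus DF of -1.77 for Ecm2 (adjusted p = 0.000987), 0.25 for Aspn, which was not called, 4.0 for Omd and 2.44 for Ogn. Against DF, the DP differences of the same genes were -4.53 for Ecm2, -6.71 for Aspn, -1.68 for Omd and -5.74 for Ogn. Cenpp, a centromere protein gene, spans Aspn, Omd and Ogn in the annotation. It was at 3.70 and 5.99 RPKM in DF, 0.430 and 0.438 in DP, then 5.01 and 5.66 in DS. No source used here says that strand was used in quantification, and reads that Cenpp may share with the 3 genes were not tested.

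**Figure D4:**
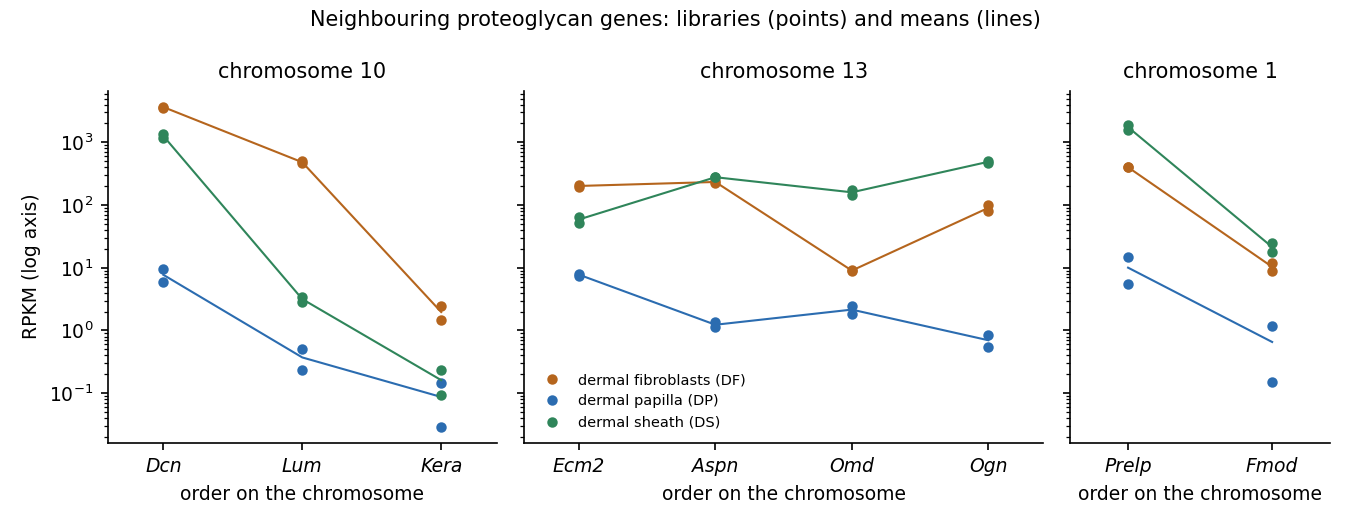
RPKM on a log axis for genes in their order on chromosomes 10, 13 and 1, with a point per library and a line through the population means. The DS line falls from Dcn to Lum on chromosome 10 far more steeply than the DF line, and on chromosome 13 it runs above the DF line at Omd and Ogn and below it at Ecm2.

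Promoter windows of 8 of the 10 genes were found in a table of RefSeq gene starts, from which the 250 bases before the start are used here. The windows of Aspn, Omd and Ogn are shown because these neighbours are scarce in DP and differ in DS, and that of Bgn because it was the member with the highest level in DP. Their positions in GRCm38.p6 are chr13:49544193-49544442, chr13:49582212-49582461, chr13:49607765-49608014 and chrX:73483351-73483600, on the plus strand in each case. Capitals mark matches, on either strand, to the letters of the motifs searched: the TATA box as TATAAA, the CCAAT box by that name, the GC box as GGGCGG, the AP-1 motif as TGANTCA, the TEAD motif as GGAATG, the RUNX motif as TGTGGT, the LEF/TCF motif as CTTTGA, and the CArG box.
Aspn: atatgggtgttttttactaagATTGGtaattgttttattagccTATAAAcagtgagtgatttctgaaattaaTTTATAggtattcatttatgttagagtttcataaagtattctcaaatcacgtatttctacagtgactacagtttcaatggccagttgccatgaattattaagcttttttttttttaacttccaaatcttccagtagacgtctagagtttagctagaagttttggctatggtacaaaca
Omd: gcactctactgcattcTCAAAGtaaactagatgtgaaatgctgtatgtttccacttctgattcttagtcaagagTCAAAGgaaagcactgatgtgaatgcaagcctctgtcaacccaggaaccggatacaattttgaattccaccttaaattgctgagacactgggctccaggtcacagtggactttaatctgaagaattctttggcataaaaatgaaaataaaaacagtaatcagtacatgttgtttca
Ogn: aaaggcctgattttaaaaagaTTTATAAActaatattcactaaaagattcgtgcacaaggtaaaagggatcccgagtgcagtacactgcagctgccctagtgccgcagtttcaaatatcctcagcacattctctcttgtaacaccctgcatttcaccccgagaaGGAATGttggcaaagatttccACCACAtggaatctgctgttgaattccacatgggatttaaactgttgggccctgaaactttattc
Bgn: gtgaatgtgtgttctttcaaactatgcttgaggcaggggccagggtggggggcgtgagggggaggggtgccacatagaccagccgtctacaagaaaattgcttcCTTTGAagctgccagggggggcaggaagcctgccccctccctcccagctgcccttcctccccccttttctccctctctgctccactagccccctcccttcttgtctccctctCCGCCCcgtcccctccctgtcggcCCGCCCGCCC
The Aspn window has 2 TATAAA matches that do not overlap, which stand 207 and 178 bases before the start, and a CCAAT match, while Ogn has a pair of overlapping TATAAA matches at 229 and 227 bases with 1 GGAATG and 1 TGTGGT match. The Omd window holds 2 CTTTGA matches and no other. The Bgn window holds 3 GGGCGG matches, of which 2 overlap, and 1 CTTTGA match. Of 32851 windows of the same length in the table, TATAAA occurs in 12.4%, CCAAT in 33.8%, GGGCGG in 32.7%, TGANTCA in 6.75%, GGAATG in 12.6%, TGTGGT in 14.0%, CTTTGA in 13.8% and the CArG box in 1.47%. In none of the 9 windows of the 8 genes were letters of TGANTCA or the CArG box found. The G and C content was 30% for Aspn, 38.4% for Omd, 42.0% for Ogn and 42.4% for Kera, 51.2% for Fmod, 55.6% for Prelp, 64.4% for Bgn, and 78.0% and 64.0% for the 2 windows of Podn, with a median of 52.4% over all windows. A match of letters is a description and not a binding site.

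For each member with at least 50 RPKM in some population, the 3 other genes with the closest profile were looked up, by Euclidean distance between centred log2(RPKM + 1) values over the 6 libraries. The nearest to Lum were Cpz (distance 1.09), a secreted carboxypeptidase, Col1a1 (1.26), a chain of collagen type I, and Mfap4 (1.40), a microfibril-associated protein. Nearest to Dcn were the small RNA genes Mir673 (1.35) and AF357425 (1.41), and Ly6a (1.77), which encodes the surface protein Sca-1. These small RNA genes varied between replicates, AF357425 with 415 and 697 RPKM in DF and Mir673 with 64.5 and 108 in DS. Mir673 was at 0 in both DP libraries. Aspn had Mfap5 (0.84), a microfibril gene, Ly6a (0.87) and Igfbp2 (1.04), an insulin-like growth factor binding protein. Ogn had Igfbp2 (1.32), Zim1 (1.41) and Thbs2 (1.42), which encodes thrombospondin 2, and Prelp had Thbs2 (0.82), Zim1 (1.20) and Cpxm2 (1.44).

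Omd was closest to Slco2a1 (0.51), a prostaglandin transporter, Susd2 (0.62) and Sulf1 (0.64), an extracellular sulfatase of heparan sulfate. Bgn was closest to Timp2 (0.28), an inhibitor of metalloproteinases, Uap1l1 (0.56) and Smtn (0.57), and Podn to Gxylt2 (0.40), Rnase4 (0.43) and Abi3bp (0.45). Between members, the smallest distance was that of Bgn and Podn (0.95), followed by Ogn and Prelp (1.37), and the largest was that of Lum and Omd (10.97).

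Collagen chains, the ligands of these proteoglycans, were mostly lower in the follicle populations than in DF. In DS, 6 of 10 chains were called lower than in DF and 1 higher, and the median was -2.43. Median-ratio scaling gave 9 lower and 1 higher, beside 1491 lower and 1173 higher of 14598 genes tested on that scale. Over all tested genes 5.95% were lower and 20.6% higher on the deposited scale, with a median of 0.53. In DP against DF, 7 chains were lower and 0 higher by limma (2 higher at an unadjusted p under 0.05), and the median was -3.13. Median-ratio scaling gave 8 lower and 0 higher, beside 1950 lower and 1360 higher of 14598 genes. Over all tested genes 6.87% were lower and 31.5% higher in DP on the deposited scale, with a median of 0.71. Col1a1 fell to 1.60% of the DF mean in DS and 0.609% in DP, and Col3a1 to 1.57% and 4.77%. Col12a1, a collagen that binds to the surface of fibrils, was at 594 and 548 RPKM in DS and 12.5 and 12.1 in DF. The log2 difference was 5.43 (adjusted p = 5.02e-05). Beside these, DS kept 34.6% of the DF mean for Dcn, more than for Col1a1, while the 0.657% of Lum was less.

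**Figure D5:**
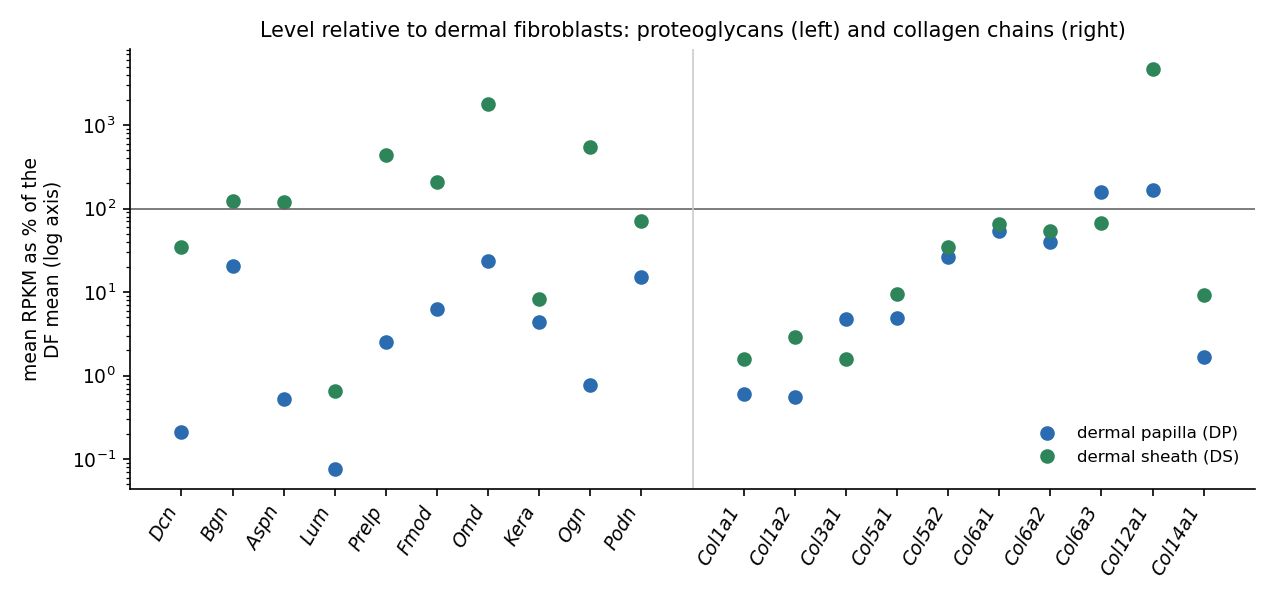
Mean RPKM in DP and DS as a percentage of the DF mean, on a log axis, for the 10 proteoglycan genes on the left and 10 collagen chains on the right, with a line at 100%. In DS, Prelp, Fmod, Omd and Ogn lie above the line by 2.07 to 17.7 times, Bgn and Aspn lie just above it on this scale but not after median-ratio scaling, and Lum and the chains of collagen types I and III lie below 3%.

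Genes for the enzymes that build the chains on these cores were called in both directions against DF. Of 22 tested genes for the linker and for chondroitin or dermatan sulfate, 3 rose and 2 fell from DF to DS, and 4 rose and 4 fell from DF to DP, beside 26.6% and 38.3% of all tested genes called in either direction. By direction, 20.6% of all tested genes rose and 5.95% fell in DS, and 31.5% rose and 6.87% fell in DP. After median-ratio scaling the list's counts were 2 and 5 in DS and 2 and 8 in DP. Of 14598 genes tested on that scale, 1173 rose and 1491 fell in DS, and 1360 rose and 1950 fell in DP. Chst15, a sulfotransferase of chondroitin sulfate, was at 0.551 and 1.47 RPKM in DF, 56.3 and 52.6 in DP, then 39.2 and 37.6 in DS. It was thus higher in both follicle populations, by 4.82 in DP (adjusted p = 0.000199) and 4.33 in DS (adjusted p = 0.000257). Xylt1, which attaches the first sugar, was lower in DS than in DF by -1.65 (adjusted p = 0.00342), and Chpf by -1.14 (adjusted p = 0.0121). In DP, Csgalnact1 was lower than in DF by -2.77 (adjusted p = 0.00404). Summed over the list's 23 genes, the level was 289 and 306 RPKM in DF, 294 and 304 in DP, then 276 and 300 in DS, so the populations overlapped.

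Of 8 tested genes for keratan sulfate, 4 were higher and 2 lower in DP than in DF on the deposited and the median-ratio scale, and 5 were lower and 0 higher in DS than in DP by limma (1 higher at an unadjusted p under 0.05), or 4 and 0 with median-ratio scaling. On the deposited scale, 31.5% of all tested genes were called higher in DP than in DF, and 6.87% lower. The shares for DS minus DP were 9.42% higher and 12.8% lower. With median-ratio scaling, 1360 of 14598 tested genes were higher and 1950 lower in DP than in DF. For DS minus DP, 1688 were higher and 1428 lower. B3gnt2, which extends the chain, was at 145 and 119 RPKM in DP, 31.5 and 37.7 in DS and 8.34 and 6.11 in DF. DP exceeded DF by 4.02 (adjusted p = 0.000197) and DS exceeded DF by 2.12 (adjusted p = 0.00124). DP therefore had the lowest transcript levels of the class II members other than Kera, for which DP and DS overlapped, and the highest of B3gnt2.

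Proteases known to cleave members of the family differed between DS and DF for 8 of 9 tested genes, with 3 up and 5 down. Over all tested genes 26.6% were called, 20.6% higher and 5.95% lower. For the proteases, median-ratio scaling left 2 up and 5 down, beside 1173 up and 1491 down of 14598 genes tested on that scale. In DP against DF, 2 of the 9 were higher and 1 lower, beside 38.3% of all tested genes called. After median-ratio scaling 0 were higher and 4 lower, beside 1360 higher and 1950 lower of 14598 genes. Adamts5 was at 102 and 90.4 RPKM in DS and 9.36 and 10.6 in DF, a log2 difference of 3.14 (adjusted p = 0.000176). Mmp13 was at 28.8 and 18.0 in DS and 0 and 0.0299 in DF (log2 difference 4.55, adjusted p = 0.000261). Htra1 was lower in both follicle populations, by -2.52 in DS and -4.52 in DP, and Mmp2 was at 86.0 and 114 RPKM in DS and 541 and 587 in DF.

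Of 17 genes for signalling partners, 4 rose and 2 fell from DF to DS, and 8 rose and 3 fell from DF to DP. Over all tested genes 20.6% rose and 5.95% fell in DS, and 31.5% rose and 6.87% fell in DP. After median-ratio scaling the list's counts were 3 and 2 in DS and 7 and 7 in DP. Of 14598 genes tested on that scale, 1173 rose and 1491 fell in DS, and 1360 rose and 1950 fell in DP. Whether the list differs from other genes was not tested. Tgfb1, a growth factor that Dcn binds, was at 4.04 and 4.16 RPKM in DF, 19.9 and 33.2 in DS and 59.0 and 80.2 in DP. DP exceeded DF by 3.77 (adjusted p = 0.000471) and DS exceeded DF by 2.39 (adjusted p = 0.00233). Tgfb2 was lower in DS by -3.20 (adjusted p = 0.000168). Among relatives of the family that are not members, Epyc, Optc, Nyx and Podnl1 reached at most 1.11 RPKM in a library, and Tsku was lower in DS than in DF by -1.56 (adjusted p = 0.00834).

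Markers of other skin cells were detected, at levels that differed between genes and populations. The 9 leukocyte markers summed to 43.1 and 54.2 RPKM in DF, 11.6 and 11.7 in DP, then 13.2 and 10.6 in DS, with C1qb listed at 0 in both DP libraries, and 6 of 7 tested were lower in DS and in DP than in DF. The 7 pericyte markers, of which Abcc9 is also on the sheath list, summed to 16.9 and 20.2 RPKM in DF, 152 and 143 in DP, then 167 and 154 in DS, with Higd1b at 0 in both DF libraries. Few genes carried these sums, Cspg4 with 121 and 124 RPKM in DP and Mcam with 110 and 101 in DS, and of 6 tested in DS against DF 2 were higher and 2 lower (Kcnj8 by -2.63 and Abcc9 by -1.59). The 10 keratinocyte markers summed to 82.2 and 79.4 in DF, 142 and 179 in DP, then 81.1 and 211 in DS, with 4 higher in DP and 1 in DS, or 1 and 0 after median-ratio scaling, and Krt10 alone at 103 RPKM in DS replicate 2 against 15.5 in DS replicate 1. The 7 melanocyte markers summed to 19.2 to 68.3 RPKM over the 6 libraries, the 8 endothelial markers to 3.72 to 18.8, the 6 Schwann cell markers to 3.99 to 24.2 and the 5 adipocyte markers to 5.31 to 26.9. Mitf carried most of the melanocyte sum in DS, with 55.5 and 63.5 RPKM. Of 6 melanocyte markers tested in DS against DF, 1 was higher (Mitf) and 3 lower (Dct, Tyrp1 and Pmel). Each of these marker sums was below the family's sum in the same library. In the DP libraries, however, Bgn held 89.1% and 92.7% of the family's sum. The next member there, Podn, was at 18.5 and 12.4 RPKM, below the keratinocyte and the pericyte sums. Podn was also below the DP sums of the melanocyte (23.1 and 19.2), Schwann cell (24.2 and 19.6) and adipocyte markers (26.9 and 14.9). The endothelial sum in DP, 18.8 and 12.4, was level with Podn, and the leukocyte sum was lower. What part such cells had in the differences above was not tested.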

How the data were processed

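The authors' deposited table gives RPKM per gene for 6 libraries, 2 each of DF, DP and DS, with replicates not pooled. Per the labels, RNA from sorted cells was amplified with a NuGEN kit before sequencing. Software and build, per the submitters' processing notes and without a role, were Salmon 1.9.0, DESeq2 1.28.1 and GRCm39. What annotation and filters were applied is not given in the sources used here. Low RPKM values times transcript length gave the depth estimate, so intervals for counting error were not set.

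From the table, log2(RPKM + 1) was fitted in limma 3.58.1 (R 4.3.3) with a mean per population and a trended eBayes step, on 3 residual degrees of freedom with 2.62 more from the prior. p-values are two-sided and adjusted over all tested genes by the Benjamini-Hochberg method. Low values shrink on this scale, so fold changes of low genes are understated. The fit was also run on simulated data, without the minimum log2 difference and without a shift of the whole table between populations. The rule used here for calling a difference was therefore not tested by it. The members and the 16 gene lists were chosen with earlier results of these data known. Named are the 10 members, 3 nearest genes for those above 50 RPKM, and from each list up to 4 called genes with the largest differences in a comparison. Cenpp, the relatives near 0 RPKM, and marker genes outside this rule were named after their values were seen. Alternatives were another pseudocount, filter, scaling, variance model, sample set, replicate block, fold minimum, and leaving out each library.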

Additional observations from a re-analysis of the deposited data

How the results depend on the processing

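The count of called members was the same in each of 3 comparisons or changed by at most 2 under the 16 alternatives. Of 471 differences of single members under the alternatives, 464 kept their direction and their side of the threshold. The exceptions, 4 of them changes of sign, were all in DS minus DF. Bgn and Aspn turned to -0.35 and -0.38 with median-ratio scaling, and to -0.012 and -0.046 with the same summed RPKM leaving out the highest gene, a setting chosen after seeing the data. Podn (median-ratio scaling) and Fmod (same sum) gained a call and Prelp lost one without DF replicate 1, as given above. Over all genes, DS minus DF had 7044 calls with the same sum and 6558 with no fold minimum, against 3899. DP minus DF had 3310 with median-ratio scaling, 9956 with the same sum and 8642 with no fold minimum, against 5620. Leaving out 1 library, members called ranged from 4 to 6 in DS minus DF and from 9 to 10 in DP minus DF and stayed at 9 in DS minus DP, where a population left with 1 library is assumed to vary like the others. Kera left the filter without either DF library and at 5 RPKM.

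With the replicate block, 6, 10 and 9 members were called in DS minus DF, DP minus DF and DS minus DP, and 3838, 5591 and 3163 genes in all, so no call of a member changed. Differences between replicates 1 and 2 correlated across genes with -0.046, -0.071 and -0.034 between populations, so the numbers were not taken as pairs. Low depth limits Kera, and Lum, Fmod, Ogn, Aspn and Omd in DP. Aspn had about 38.5 and 35.9 reads there and Omd about 83.2 and 46.4. Read numbers assume the longest transcript of each gene.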
